A study of Mus musculus with 8 samples.

Results

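A set of 9 genes of the podocyte, the cell that filters the blood in the glomerulus, was followed in cultured mouse embryonic kidneys: *Wt1*, *Podxl*, *Ptpro*, *Kirrel*, *Magi2*, *Cd2ap*, *Plce1*, *Synpo* and *Clic5*. They were chosen by name, and all 9 were found among the 30890 genes of the deposited count table and among the 16723 genes with enough reads for testing. Kidneys were taken from C57BL/6 embryos at E12.5 and kept in culture for 72 h with the GSK-3β inhibitor CHIR99021 at 5 μM, which activates Wnt/β-catenin signaling, or with DMSO at 0.1%. Each group had 4 samples, and all samples were whole organs without sorting, for which no genetic change is named. According to the study's methods, the left kidney of each embryo received DMSO and the right kidney CHIR99021, and kidneys without the usual changes of Wnt target genes were excluded. The labels do not say that a replicate number marks an embryo, and pairs named here are samples with the same number.

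Podocytes cover the capillaries of the glomerulus with interdigitating foot processes. Neighbouring foot processes are joined by the slit diaphragm, a junction built from nephrin (*Nphs1*) and the Neph proteins of the Kirrel family, which is anchored to actin by adaptors such as CD2AP and MAGI2. The apical surface carries podocalyxin, a strongly charged sialoprotein, and the foot processes keep their shape through actin regulators such as synaptopodin. Wnt/β-catenin activity is known to be needed early in nephron formation and to be low in mature podocytes. Of the 9 genes, *Wt1* is also a gene of nephron progenitors, *Podxl* and *Clic5* are also made by endothelium, and *Cd2ap*, *Kirrel* and *Plce1* are made by many cells.

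Treatment was tested with edgeR's quasi-likelihood method, with Benjamini-Hochberg adjustment over all tested genes, and the words rose and fell are kept for an adjusted p under 0.05. Levels are given as CPM, a gene's share of the reads of its library with the library size scaled by TMM. Values with ± are means and SD of the 4 samples of a group, and coordinates are those of GRCm38. Total counts were between 14599082 and 17751992 per sample. DMSO replicates 2 and 4 stood apart in liver transcripts, with sums of 1463 and 1039 CPM over 12 markers against 1.51 to 62.2 in the other samples. Of 4 liver markers tested 3 fell, but the count was 1 without DMSO replicate 2, without DMSO replicate 4 or without any 1 CHIR99021 replicate, 9 without DMSO replicate 3, where more of them entered the test, and 11 with DESeq2. With CHIR99021, 6 of the 9 podocyte genes fell (*Wt1*, *Podxl*, *Ptpro*, *Cd2ap*, *Plce1* and *Clic5*), 2 rose (*Kirrel* and *Magi2*) and *Synpo* passed in neither direction. Of all tested genes 25.0% fell and 23.7% rose by the same test. A log2 fold change beyond 1 was passed by 4 of the falling genes (*Wt1*, *Podxl*, *Ptpro* and *Clic5*), a class that held 9.16% of all tested genes, and by 0 of the rising ones, against 4.65% of all tested genes. The median log2 fold change was -0.79 over the 9 genes and 0.00 over all tested genes. The 4 treated samples lay below all 4 DMSO samples for the 6 genes that fell and above them for the 2 that rose, while such a separation was seen for 23.4% of all tested genes downward and 22.7% upward. Without DMSO replicates 2 and 4 the direction of all 9 genes was the same, and 5 fell, 2 rose and *Ptpro* (adjusted p = 0.11) and *Synpo* did not pass. In a whole organ, fewer cells of a type and less RNA per cell cannot be told apart.

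**Figure D1:**
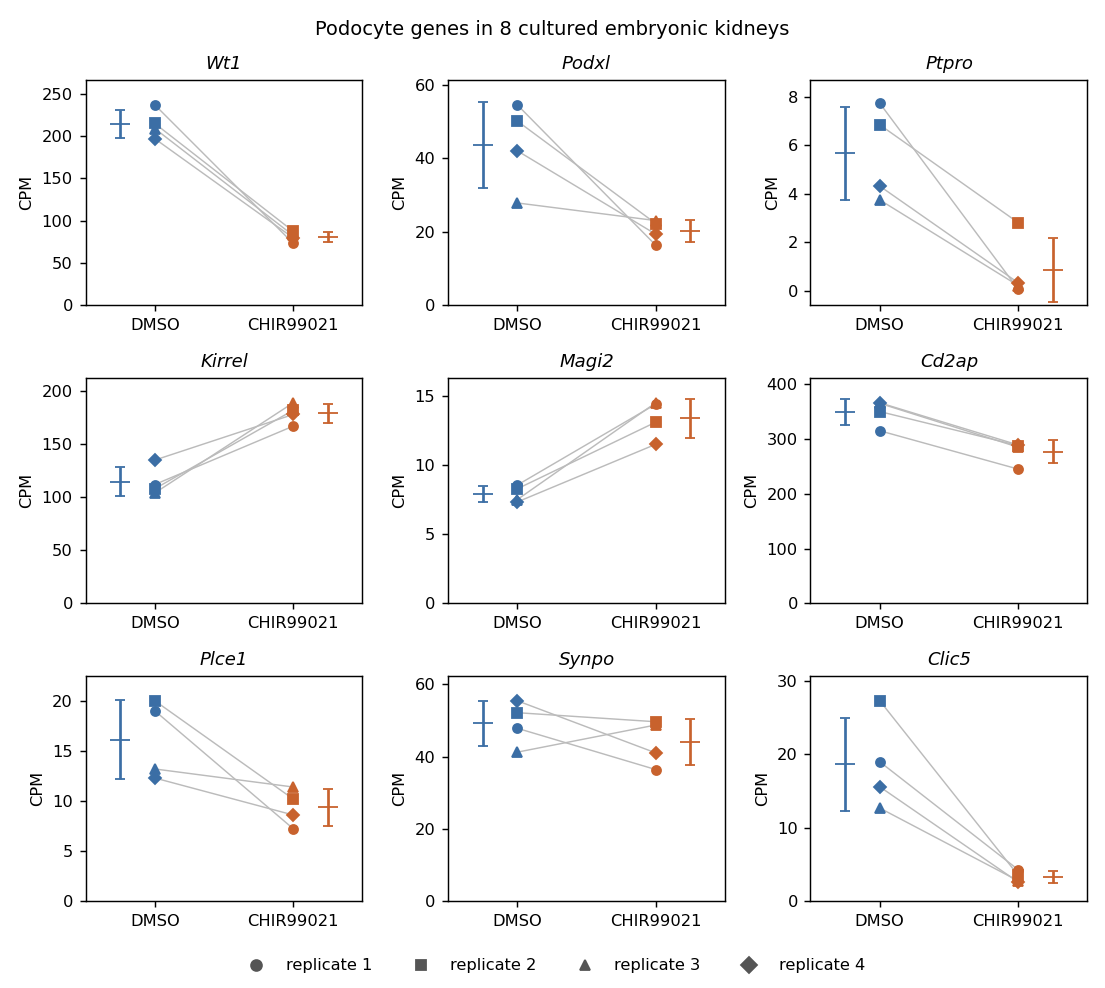
CPM of the 9 podocyte genes (y axis, from 0 except where the SD bar of *Ptpro* extends below it) in each DMSO and CHIR99021 sample. Each symbol is 1 kidney sample, grey lines join samples with the same replicate number, and bars beside the points give mean ± SD of 4 samples. *Kirrel* and *Magi2* lie higher in all treated samples, and *Synpo* overlaps between the groups.

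*Wt1*, the zinc finger transcription factor that directs both progenitor survival and podocyte identity, lies on chromosome 2 from 105126529 to 105173616. It stood at 237, 215, 209 and 197 CPM in DMSO replicates 1 to 4 and at 73.3, 87.6, 82.7 and 79.8 in the CHIR99021 samples. The samples of a group differed by at most 1.20 times, and the treated level was 2.66-fold lower (log2 fold change -1.41, SE 0.07, adjusted p = 5.88e-09). Most of the other genes listed as podocyte transcription factors fell too, and the part of other cell types in their changes was not tested. Of 8 such genes, 6 fell and 2 rose, with a median log2 fold change of -0.86. *Lmx1b*, a LIM homeobox factor needed for podocyte differentiation, fell from 16.9 ± 1.97 to 1.29 ± 0.534 CPM (adjusted p = 5.2e-08, log2 fold change -3.71 with an SE of 0.22). The forkhead gene *Foxc1* fell from 59.4 ± 5.10 to 18.0 ± 1.48 CPM (log2 fold change -1.73) and its relative *Foxc2* from 50.5 ± 9.14 to 25.1 ± 2.29 (log2 fold change -1.01). *Hey1* (-1.17), *Zhx2* (-0.72) and *Tcf21* (-0.29) fell as well. *Tead1*, a factor of the Hippo pathway, rose by 0.17 on the log2 scale (adjusted p = 0.0332), with overlapping groups. With the replicate number as a block only 1 of the 2 rises in this list passed. Neither passed when DMSO replicate 2, DMSO replicate 3, CHIR99021 replicate 2 or CHIR99021 replicate 3 was left out, and 1 passed without DMSO replicate 4 or without CHIR99021 replicate 1. Progenitor genes fell with *Wt1*: of 16, 13 fell and 0 rose (1 with the replicate block, with DESeq2, without CHIR99021 replicate 1 or without CHIR99021 replicate 2), and their summed level was 1345 to 1631 CPM with DMSO and 551 to 644 after CHIR99021. None of these 16 was at 0 in all samples. The part of progenitors in the fall of *Wt1* was not tested.

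The apical membrane genes fell, with unequal spread. *Podxl*, on chromosome 6 from 31519488 to 31563981, encodes podocalyxin. It stood at 54.6, 50.2, 27.9 and 42.1 CPM with DMSO and at 16.4, 22.3, 23.1 and 19.4 with CHIR99021. DMSO replicate 3 was the lowest control and lay close to the treated range, so that the difference within pair 3 was only -0.27 on the log2 scale against -1.74 to -1.12 in the other pairs. Over all samples it fell 2.16-fold (log2 fold change -1.11, SE 0.21, adjusted p = 0.00303). *Ptpro*, a receptor tyrosine phosphatase of the podocyte's apical surface also known as GLEPP1, lies on chromosome 6 from 137252319 to 137463233. It had 143, 120, 64 and 66 counts with DMSO and 1, 42, 3 and 5 with CHIR99021, or 7.74, 6.85, 3.75 and 4.32 against 0.0624, 2.81, 0.215 and 0.329 CPM. One treated sample, replicate 2, held most of the treated counts but still lay below every control. The fitted log2 fold change was -2.73 (SE 0.83, 95% interval -4.69 to -0.78, adjusted p = 0.0287), and -4.77 without CHIR99021 replicate 2 (adjusted p = 6.69e-06). The call of *Ptpro* ended without DMSO replicate 1 (adjusted p = 0.0664), DMSO replicate 2 (adjusted p = 0.0636), CHIR99021 replicate 3 (adjusted p = 0.0679) or CHIR99021 replicate 4 (adjusted p = 0.079).

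Promoter sequence is shown for *Ptpro*, which fell, and for *Kirrel* and *Magi2*, which rose, so that genes of opposite direction can be read side by side. RefSeq start sites on GRCm38.p6 were matched for 6 of the 9 genes, in 7 windows of the 250 bases before the start. These starts can differ from the gene bounds given in the other paragraphs. Most of the *Kirrel* window lies inside the bounds of its gene, as does the end of the first *Magi2* window. The other *Magi2* window (chr5:19907268-19907517) and the *Plce1* window (chr19:38523947-38524196) lie wholly inside them. Such windows are not purely upstream sequence. Capitals mark matches, on either strand, to the TCF/LEF core CTTTGA, the WT1/EGR core GTGGGNG or the LIM homeobox core TAATTA. No overlap between motifs occurred in these windows. The *Ptpro* window is chr6:137252049-137252298 on the plus strand, the *Kirrel* window chr3:87174538-87174787 on the minus strand and the *Magi2* window, at the first of its 2 starts, chr5:19226796-19227045 on the plus strand.
Ptpro: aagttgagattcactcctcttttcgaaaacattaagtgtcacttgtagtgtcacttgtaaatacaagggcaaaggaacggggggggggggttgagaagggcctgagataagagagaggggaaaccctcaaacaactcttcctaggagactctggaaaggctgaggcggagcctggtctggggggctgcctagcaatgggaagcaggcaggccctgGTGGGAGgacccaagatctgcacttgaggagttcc
Kirrel: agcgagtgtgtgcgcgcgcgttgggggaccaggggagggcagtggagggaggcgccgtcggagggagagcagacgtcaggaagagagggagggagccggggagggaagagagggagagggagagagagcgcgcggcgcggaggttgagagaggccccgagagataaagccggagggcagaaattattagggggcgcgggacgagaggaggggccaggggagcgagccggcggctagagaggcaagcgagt
Magi2: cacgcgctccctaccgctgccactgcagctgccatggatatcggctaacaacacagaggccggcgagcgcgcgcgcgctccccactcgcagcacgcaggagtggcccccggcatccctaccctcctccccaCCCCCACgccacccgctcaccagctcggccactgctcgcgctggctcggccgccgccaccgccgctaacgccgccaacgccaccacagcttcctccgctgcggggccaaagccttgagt
The WT1/EGR core was found 35 to 29 bases before the start of *Ptpro*, in the orientation of the gene, and 119 to 113 bases before the first start of *Magi2* on the opposite strand. The same core was found before *Cd2ap*, and 28.1% of 32851 windows of this length hold it. The TCF/LEF core, present in 13.8% of all windows, was in none of the 7 windows, and the LIM homeobox core, present in 4.84%, was in 1, before the other start of *Magi2*. The *Kirrel* window holds none of the 3 motifs and has 68.8% GC, against 53.6% for *Ptpro* and 72.0% for this *Magi2* window. These matches describe the letters alone.

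Genes of the slit diaphragm itself moved in both directions. *Kirrel*, also known as Neph1, encodes an immunoglobulin protein that binds nephrin across the slit, and lies on chromosome 3 from 87078593 to 87174747. It stood at 112, 108, 104 and 135 CPM with DMSO and at 167, 182, 189 and 178 with CHIR99021. Every treated sample exceeded every control, a 1.56-fold rise (log2 fold change 0.64, SE 0.08, adjusted p = 2.21e-05). *Magi2*, a scaffold with PDZ domains that holds nephrin at the slit, spans chromosome 5 from 19227036 to 20704792. It stood at 8.55, 8.28, 7.50 and 7.33 CPM with DMSO and at 14.4, 13.1, 14.5 and 11.5 with CHIR99021. The groups did not overlap and the rise was 1.68-fold (log2 fold change 0.75, SE 0.11, adjusted p = 0.000123). *Cd2ap*, the adaptor that links nephrin to actin, lies on chromosome 17 from 42792951 to 42876424 and had the highest FPKM of the 9. It stood at 315, 350, 365 and 366 CPM with DMSO and at 245, 288, 285 and 289 with CHIR99021, a small but separated fall (log2 fold change -0.34, SE 0.06, adjusted p = 0.000865). Of its 50-base stretches 5.24% also occur in transcripts of other genes, against 1.43% for *Magi2* and 0.137% for *Clic5*, and none for the other 6 genes.

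*Nphs1*, a defining gene of the slit diaphragm, had few counts and did not reach the level needed for testing. It is named here, as are *Ddn* and *Kirrel2*, after their values were seen. *Nphs1* had 41, 34, 5 and 20 counts with DMSO and 1, 1, 1 and 0 with CHIR99021. The ratio of the summed counts, 100 against 3, is 29.3-fold lower after treatment, with an exact 95% interval of 9.75 to 145 that covers counting error only. *Ddn*, which encodes the slit protein dendrin, had 46, 37, 6 and 21 counts against 3, 7, 4 and 4 (5.37-fold lower, interval 3.25 to 9.40), and DMSO replicate 3 lay within the treated range. *Kirrel2*, another Neph protein, had only 14 counts against 4. With no expression filter, edgeR gave an adjusted p of 2.96e-06 for *Nphs1*, 0.000603 for *Ddn* and 0.263 for *Kirrel2*. By DESeq2 it was 1.4e-05, 0.000719 and 0.386.

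Of 15 other tested genes of the slit diaphragm and its signaling, 6 rose and 5 fell, with a median log2 fold change of 0.00, and 8 fell with limma on FPKM. *Kirrel3*, a Neph protein known mainly from neurons, rose from 2.95 ± 0.554 to 10.6 ± 1.90 CPM (adjusted p = 3.43e-06, log2 fold change 1.84 with an SE of 0.18). *Trpc6*, a calcium channel of the slit diaphragm, rose from 0.327 ± 0.172 to 1.71 ± 0.399 CPM (adjusted p = 0.000195, log2 fold change 2.38 with an SE of 0.38). The cadherin *Cdh3* (log2 fold change 1.52), the PI3-kinase subunit *Pik3r1* (1.05) and the protocadherin *Fat1* (0.46) rose as well. *Crb2*, a polarity protein of the slit, fell from 5.88 ± 1.09 to 2.99 ± 0.230 CPM (adjusted p = 0.00045, log2 fold change -0.98 with an SE of 0.17). The scaffold *Iqgap1* (log2 fold change -0.31) and the polarity kinase *Prkci* (-0.15) fell by less. The count of falling genes was 3 without DMSO replicate 1, 8 without CHIR99021 replicate 1 or 3, and 10 without DMSO replicate 3, where genes such as *Nphs1* (adjusted p = 8.94e-06) and *Ddn* (adjusted p = 9.34e-05) entered the test.

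**Figure D2:**
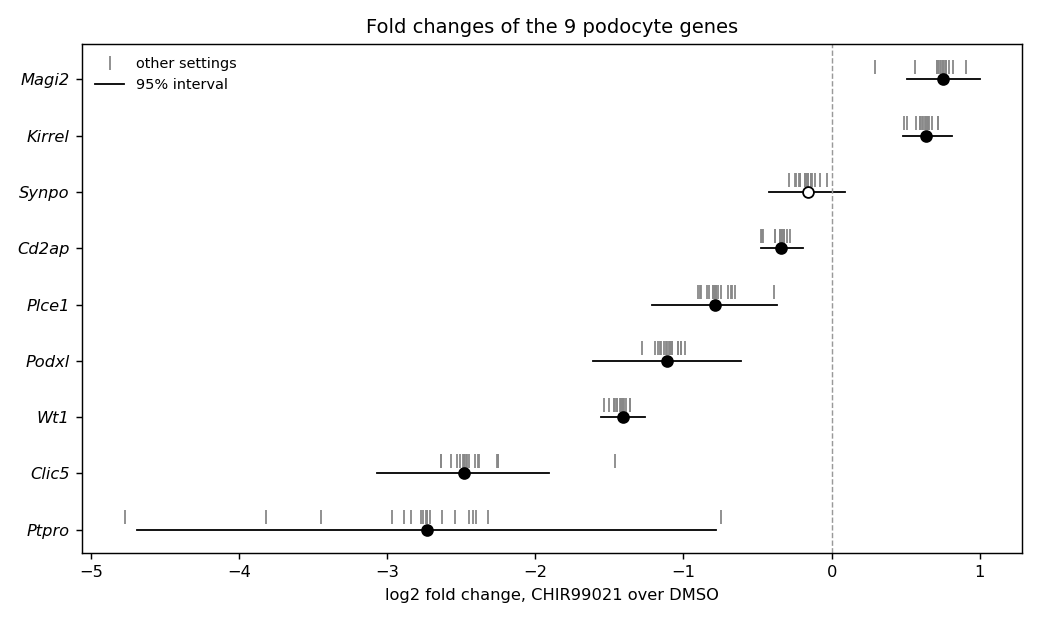
Log2 fold change of CHIR99021 over DMSO (x axis) for the 9 podocyte genes. Circles are the edgeR values, filled where the adjusted p was under 0.05, lines their 95% intervals and grey ticks the values under 19 other settings. *Kirrel* and *Magi2* stay above 0, *Ptpro* has the widest interval, from -4.69 to -0.78, and the interval of *Synpo* spans 0.

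*Plce1*, *Synpo* and *Clic5* connect the slit to signaling and the cytoskeleton. *Plce1*, a phospholipase C needed for glomerular maturation, lies on chromosome 19 from 38481109 to 38785030. It stood at 19.0, 20.0, 13.2 and 12.3 CPM with DMSO and at 7.24, 10.2, 11.4 and 8.61 with CHIR99021, so the highest treated sample came close to the lowest control. The fall was 1.73-fold (log2 fold change -0.79, SE 0.19, adjusted p = 0.00488). *Clic5*, a chloride channel family protein that joins ezrin and podocalyxin to actin, lies on chromosome 17 from 44188572 to 44280168. It stood at 19.0, 27.3, 12.7 and 15.6 CPM with DMSO and at 4.31, 3.55, 2.80 and 2.63 with CHIR99021. Its fall was 5.60-fold and wide of the replicate spread (log2 fold change -2.48, SE 0.26, adjusted p = 2.5e-05). *Synpo*, which encodes synaptopodin and lies on chromosome 18 from 60593973 to 60660142, stood at 47.8, 52.1, 41.2 and 55.4 CPM with DMSO and at 36.4, 49.6, 48.7 and 41.0 with CHIR99021. The groups overlapped, and the difference was -0.16 on the log2 scale with a 95% interval of -0.42 to 0.09 (SE 0.11, adjusted p = 0.276). Within pairs *Synpo* was lower in 3 and higher in 1 treated kidney. The other 8 genes had the same direction in all 4 pairs, which groups without overlap give under any pairing.

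The partners of these proteins in the foot process were divided. Of 21 other tested genes of the podocyte actin cytoskeleton, 9 rose and 9 fell, with a median log2 fold change of -0.08, and 4 rose with limma on FPKM. Partners of podocalyxin fell: *Ezr*, the actin linker ezrin, from 306 ± 16.2 to 147 ± 5.06 CPM (adjusted p = 5.19e-09, log2 fold change -1.05 with an SE of 0.05), and its scaffold *Slc9a3r1* from 55.3 ± 4.38 to 17.9 ± 2.61 (adjusted p = 5.51e-08, log2 fold change -1.63 with an SE of 0.10). *Clic4*, a close relative of *Clic5*, had a log2 fold change of -0.41. The GTPase regulator *Arhgap24* (log2 fold change -1.10) and the adhesion adaptor *Kank1* (-0.69) fell. *Inf2*, a formin mutated in familial glomerular disease, rose from 62.4 ± 11.6 to 110 ± 4.88 CPM (adjusted p = 0.000202, log2 fold change 0.82 with an SE of 0.11), and the actin regulators *Cfl1* (0.44) and *Cttn* (0.35) rose.

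Of 22 other podocyte marker genes, 16 fell and 2 rose, with a median log2 fold change of -0.72, and 0 rose with limma on FPKM or without DMSO replicates 2 and 4. The collagens of the mature glomerular basement membrane, *Col4a3* and *Col4a4*, fell to 2.97 ± 0.387 and 6.74 ± 0.700 CPM from 12.7 ± 2.65 and 38.6 ± 6.85. *Mme*, the membrane peptidase neprilysin, had a log2 fold change of -3.18 (SE 0.11, adjusted p = 1.47e-09) and *Enpep*, the peptidase that cleaves angiotensin II, one of -2.05. Secreted and guidance genes of this list fell by less: *Npnt*, an integrin ligand, by 1.06, *Robo2* by 0.74 and *Vegfa*, the signal for the glomerular endothelium, by 0.49 on the log2 scale. The intermediate filament *Nes* fell by 0.42. *Mme*, *Enpep* and *Vegfa* are also made by tubule cells. With DMSO *Npnt* stood at 395 ± 42.6 and *Robo2* at 212 ± 26.4 CPM, against 1.44 ± 0.854 for *Nphs1*. A gene of this list is counted again among the endothelial markers below. The part of other cells in the changes of this list was not tested.

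**Figure D3:**
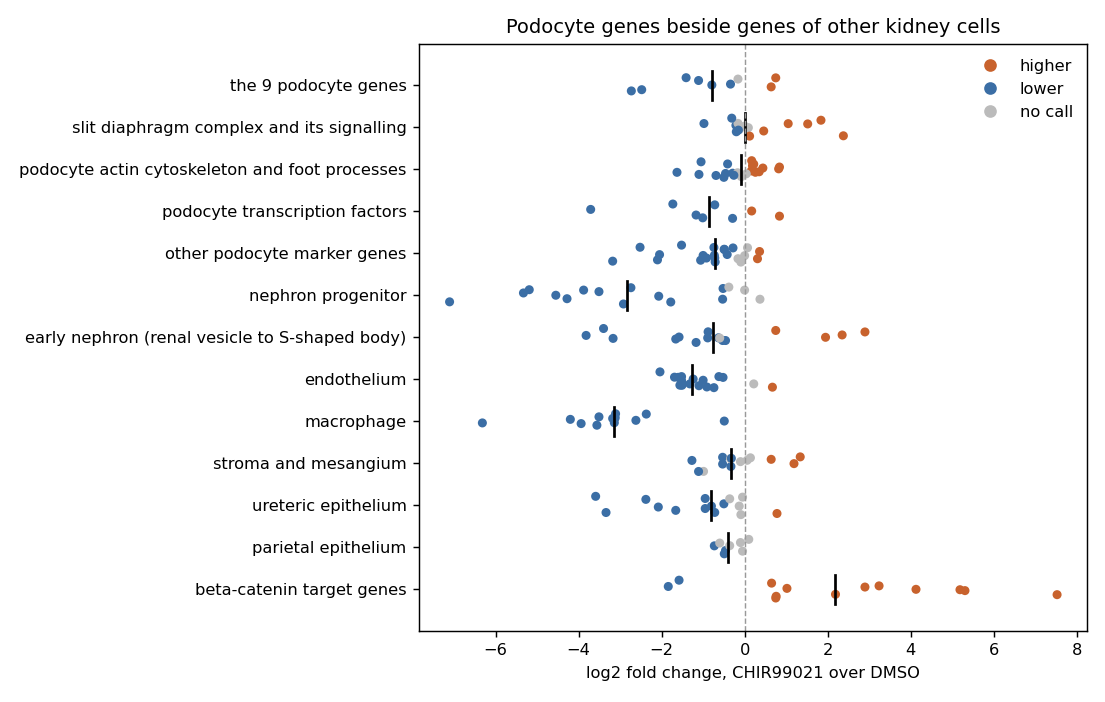
Log2 fold change of CHIR99021 over DMSO (x axis) for tested genes of the 9 podocyte genes and 12 lists (rows), with the 9 genes left out of the lists. Points are genes, colored by their call at an adjusted p under 0.05, and bars are list medians. Podocyte transcription factors and other podocyte markers have medians of -0.86 and -0.72, and slit diaphragm genes one of 0.00.

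A fixed set of 7 podocyte markers summed to 302 to 388 CPM with DMSO and 172 to 224 with CHIR99021. Genes of other kidney cells also moved with treatment. Of 18 endothelial markers 16 fell and 1 rose, and their summed level was 678 to 898 CPM with DMSO and 321 to 434 with CHIR99021. *Robo4* (log2 fold change -1.56), *Icam2* (-1.51), *Erg* (-1.32) and *Esam* (-1.24) were among them. All 13 tested macrophage markers fell, from a sum of 168 to 643 CPM to one of 32.5 to 92.6 over the 14 listed. DMSO replicate 4 held the 168, against 603, 569 and 643 in DMSO replicates 1 to 3. The count was 11 without DMSO replicate 1 or 3, 12 with no expression filter, and 14 with DESeq2 or without DMSO replicate 4. *Cx3cr1* (log2 fold change -6.32), *Fcgr1* (-3.94), *Ptprc* (-3.56) and *Ctss* (-3.11) are named by the smallest p. Early nephron genes moved both ways, 4 up and 11 down of 16, including *Lef1* (2.90), *Ccnd1* (-1.58), *Pou3f3* (-1.17) and *Irx1* (-3.82). Some of these 16, *Lef1* and *Ccnd1* among them, are counted again in the list of β-catenin target genes below. Of 8 genes of parietal epithelium, the outer lining of the glomerular capsule, 3 fell (*Pax2*, *Cldn3* and *Pax8*) and 0 rose, from a sum of 912 to 1038 CPM to one of 752 to 802. With the replicate block, DESeq2, limma-voom or log2(count + 1) 5 of these 8 fell, and 6 fell with limma on FPKM. Stromal and mesangial markers summed to 4367 to 5667 CPM with DMSO and 7730 to 9343 with CHIR99021, although only 3 of 14 rose and 6 fell (3 without DMSO replicates 2 and 4). *Col1a1* went from a mean of 1793 to 4524 CPM and *Col3a1* from 1719 to 2673. *Pdgfra* rose by 1.19 and *Itga8* fell by 0.53 on the log2 scale. Of 15 ureteric genes 10 fell and 1 rose, with *Calb1* (-3.34), *Ros1* (-2.38), *Tfcp2l1* (-2.08) and *Emx2* (0.78). None of the markers was at 0 in all samples. Their part in the changes of the 9 podocyte genes was not tested. Of 13 β-catenin target genes 11 rose, *Notum* (7.53), *Nkd1* (4.13), *Axin2* (3.24) and *Tcf7* (2.19) among them, and 2 fell, *Ccnd1* (-1.58) and *Myc* (-1.84), the latter named after its values were seen. Since kidneys were selected on such genes, this is not independent evidence of their direction.

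The 4 control samples differed in the level of several podocyte genes. DMSO replicate 3 was the lowest control for 5 of the 9 genes. Relative to the mean of the DMSO group it stood at 0.64 for *Podxl*, 0.66 for *Ptpro* and 0.68 for *Clic5*, and at 0.20 for *Nphs1* and 0.22 for *Ddn*. DMSO replicates 1 and 2 stood above the mean for all of these genes, at 1.54 and 1.35 for *Nphs1* and at 1.37 and 1.21 for *Ptpro*. By contrast *Wt1* ranged only from 0.92 to 1.11, *Magi2* from 0.93 to 1.08 and *Cd2ap* from 0.90 to 1.05 of their means. The other podocyte transcription factors differed in this: *Lmx1b* and *Tcf21* stood at 1.10 and 1.08 of their means in DMSO replicate 3. *Hey1* was lowest there, at 43.9 CPM against 71.0, 69.2 and 48.1 in DMSO replicates 1, 2 and 4. The coefficient of variation over the DMSO samples was 26.9% for *Podxl*, 34.1% for *Ptpro*, 33.8% for *Clic5* and 24.4% for *Plce1*. For the other 5 genes it was lower, at 6.80% for *Cd2ap*, 7.48% for *Magi2*, 7.81% for *Wt1* and 12.0% for *Kirrel*. Endothelial markers summed to 898, 880, 678 and 687 CPM in DMSO replicates 1 to 4, so that replicates 3 and 4 were low for them as well. Replicate 3 was also the lowest control for every gene of the early nephron list but *Fgf8*, looked at after its values were seen. *Irx1* stood at 13.5, 12.2, 5.98 and 9.16 CPM in DMSO replicates 1 to 4, while *Pou3f3* differed little, at 77.5, 72.6, 71.1 and 81.4. The low replicate 3 was thus not particular to podocyte genes. The part of the endothelium and of the early nephron was not tested.

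**Figure D4:**
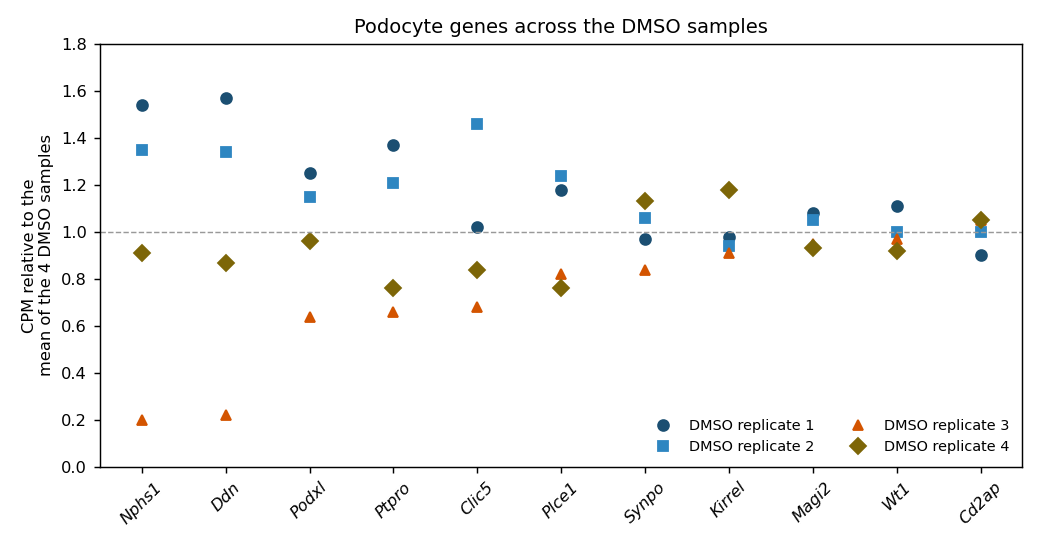
CPM of the 9 podocyte genes and of *Nphs1* and *Ddn* in each DMSO sample, divided by the mean of the 4 DMSO samples (y axis). Symbols are samples and the dashed line marks 1. DMSO replicate 3 falls to 0.20 for *Nphs1* and stays at 0.97 for *Wt1*.

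The order of the 9 genes by level per gene length also changed. FPKM, fragments scaled by gene length and library size, was used for this comparison. With DMSO the order of mean FPKM was *Cd2ap* (67.7 ± 4.90), *Wt1* (36.2 ± 2.71), *Kirrel* (16.1 ± 1.93), *Podxl* (8.32 ± 2.19), *Synpo* (5.39 ± 0.655), *Clic5* (3.32 ± 1.10), *Plce1* (1.05 ± 0.251), *Ptpro* (0.880 ± 0.295) and *Magi2* (0.729 ± 0.0507; SD, n = 4). The sample ranges of *Podxl* and *Synpo*, *Synpo* and *Clic5*, *Plce1* and *Ptpro*, and *Ptpro* and *Magi2* overlapped. With CHIR99021 *Cd2ap* stayed at the top (48.9 ± 3.83), *Kirrel* (22.9 ± 1.18) stood above *Wt1* (12.4 ± 0.896), *Synpo* (4.39 ± 0.622) overlapped with *Podxl* (3.52 ± 0.524), and *Magi2* moved from the last to the sixth place (1.12 ± 0.113). *Plce1* (0.558 ± 0.108) and *Clic5* (0.538 ± 0.122) overlapped, and *Ptpro* was last at 0.120 ± 0.184.

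**Figure D5:**
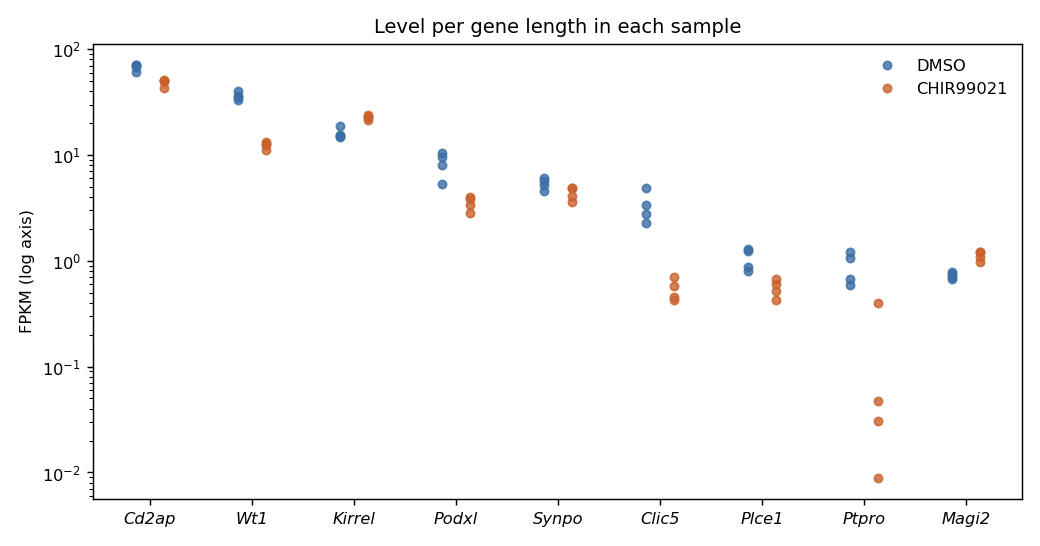
FPKM (y axis, log scale) of the 9 podocyte genes, ordered by their mean in the DMSO group. Each point is 1 sample of the DMSO or CHIR99021 group. *Kirrel*, at 22.9 FPKM after CHIR99021, lies above *Wt1*, at 12.4.

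A ratio of 2 genes within a library does not depend on how libraries are scaled. The log2 ratio of each gene's counts to those of *Wt1* was compared by an exact two-sided permutation test over the 4 and 4 samples, whose smallest possible p is 0.0286, adjusted over 8 ratios. The *Kirrel* to *Wt1* ratio went from -0.91 ± 0.24 to 1.15 ± 0.06, a difference of 2.06 (exact permutation p = 0.0286, adjusted p = 0.0381). The groups lay apart to the same p for *Magi2* (difference 2.16), *Synpo* (1.25), *Cd2ap* (1.07) and *Plce1* (0.64), which all gained on *Wt1*, and for *Clic5* (-1.05), which fell further than *Wt1*. For *Kirrel* and *Magi2* the separation was fixed in advance, since their groups lay apart in the direction opposite to *Wt1*. For *Synpo* and *Cd2ap* it was fixed as well, by the fall of *Wt1* beside their own small change. The CPM ranges given above allow no overlap of these ratios, whichever samples are combined. The p of *Kirrel*, *Magi2*, *Synpo* and *Cd2ap* is therefore no further test. *Podxl* (difference 0.34, exact permutation p = 0.0857, adjusted p = 0.098) and *Ptpro* (difference -2.61, exact permutation p = 0.114, adjusted p = 0.114) overlapped between the groups in this ratio.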

How the data were processed

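RNA was sequenced from 8 embryonic kidney cultures, 4 with DMSO and 4 with CHIR99021, grouped by their labels. Reads passing the filters of the authors were mapped with HISAT2 (2.0.5 in the submitters' processing notes) to GRCm38 and assigned with featureCounts, and the deposited count values are whole numbers per gene without scaling. The deposited FPKM values were scaled by the authors for gene length and sequenced fragments. The labels and the methods name different extraction and library kits. Strand-specific counting: not given in these sources. The table also holds the authors' own comparison (mean, fold change, p-values), which was not used.

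From the counts, edgeR 4.0.16 (filterByExpr with min.count = 10 and min.total.count = 15, TMM, glmQLFit with robust = TRUE, glmQLFTest, group as the only term) was run in R 4.3.3 over 16723 of 30890 genes. Total counts of 14599082 to 17751992 set the precision. DESeq2 1.42.0, limma 3.58.1 (voom, log2(FPKM + 1) or log2(FPKM + 0.1), and array-normalized log2(count + 1)), other scalings and filters, and samples left out were alternatives. P-values measure the spread between these samples. The fit was tested on simulated data. Ratios to *Wt1* were tested by exact permutation in Python 3.11.15. Promoter windows were RefSeq sequences, and exon overlaps and shared 50-base stretches were computed from the GENCODE annotation of GRCm38. *Magi2* shares 1.79% of its exon bases with a noncoding gene of the same strand, and the other 8 genes share none.

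The study's methods pair the kidneys of an embryo, but no source read here ties replicate numbers to embryos. The deviations of the 4 same-numbered pairs from the group means correlated at 0.111 to 0.346 across genes, all over 0.1, and those of the other 12 cross-group combinations at -0.18 to 0.0766. The 9 genes and all lists were chosen with earlier results of these data known. The genes named were the 9, up to 8 genes with the smallest p of each podocyte list and up to 4 of each other list, with others marked. Some genes that this rule names are not reported here.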

Additional observations from a re-analysis of the deposited data

Results flagged for a closer look

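Of 18 groups of 4 samples (9 genes in 2 treatments), 2 held a sample far from the other 3 by Dixon's criterion, which chance meets in about 1 of 20 groups. *Ptpro* stood at 2.81 CPM in CHIR99021 replicate 2 against 0.0624 to 0.329 in the other treated samples. In that sample *Nphs1* had 1 count, as in 2 other treated samples. *Cd2ap* stood at 245 CPM in CHIR99021 replicate 1 against 285 to 289 in the other treated samples, and its DMSO partner, at 315 CPM, was the lowest control.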

How the results depend on the processing

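All 9 genes kept their direction under each of 19 alternatives, and 8 of them kept their side of the threshold. *Ptpro* was the exception, in 6 alternatives: besides the samples named above, its call ended with no expression filter (adjusted p = 0.0756) and without DMSO replicates 2 and 4 (adjusted p = 0.11), in a range of 6.69e-06 to 0.11. With samples left out in turn, 5 or 6 of the 9 genes fell and 2 rose. With the replicate number as a block, the log2 fold change of *Ptpro* was -2.97 (adjusted p = 0.0233) and that of *Podxl* -1.08 (adjusted p = 0.0191), and the block changed no call of the 9 genes.

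Counts over the podocyte lists moved more. Rising transcription factors, 2 in the main test, were 1 with the replicate block, with no expression filter, with limma on log2(FPKM + 1) and on log2(count + 1), 0 with upper-quartile scaling, on log2(FPKM + 0.1) and without DMSO replicates 2 and 4, and 0 to 2 with samples left out in turn. Falling slit diaphragm genes, 5 in the main test, were 8 with limma on both FPKM scales, 2 without DMSO replicates 2 and 4, and 3 to 10 with samples left out in turn. Rising cytoskeletal genes, 9 in the main test, were 4 on both FPKM scales and 3 on log2(count + 1). Rising genes among the other podocyte markers, 2 in the main test, were 0 on both FPKM scales and without DMSO replicates 2 and 4. On the FPKM scales the median log2 fold change of all tested genes was -0.10 and -0.13, and 29.5% and 29.2% of called genes rose, against 48.6% in the main test. For the other lists 322 of 342 counts stayed within 1.5 times the main count.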

Other observations

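*Wt1os*, a noncoding RNA on the opposite strand next to the start of *Wt1*, was examined after its values were seen. It stood at 26.6, 29.0, 29.2 and 23.2 CPM with DMSO and at 5.24, 6.23, 7.39 and 8.87 with CHIR99021 (log2 fold change -1.96, SE 0.14, adjusted p = 3.44e-07, edgeR), lower in all 4 pairs, and no exon base of *Wt1* is shared with it in GENCODE.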
